A study of Musca domestica with 24 samples.

Results

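The 100 genes described here had higher RNA levels in control female house flies than in control male house flies in the head and in the abdomen alike. They were chosen from 16540 genes in the deposited tables, of which 16443 carry an identifier that starts with LOC. A gene qualified when its mean normalized count reached 50 in the heads of both control sexes, when every control female head lay above every control male head, and when every control female abdomen lay above every control male abdomen. Of the LOC genes, 9234 reached the minimum in both sexes, 2402 of these also had no overlap in the head, and 1023 had none in either tissue. These 1023 genes were ordered by the smaller of their head and abdomen differences in log2(group mean + 1), and the 100 highest were kept. The sex difference between control flies therefore chose the genes, and its values are given below as a description with no test.

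RNA-seq was done on heads and abdomens of Musca domestica of the strain IIIM (3-6), whose male determiner sits on the third chromosome, which corresponds to Muller element A in the naming of chromosome arms conserved among flies. All flies had received double-stranded RNA. In each tissue 3 N flies and 3 SR flies were given double-stranded RNA against Md-tra, while 3 GFP females and 3 GFP males were given double-stranded RNA against GFP, a control target that the fly lacks. All N and SR flies were phenotypic males per the labels. The titles give the N flies as genotypic females turned into males and the SR flies as genotypic males, but the headers of the deposited comparisons call SR the sex-reversed and N the normal males, so the code names are kept here. No age is given, and each library came from 1 fly, labelled a biological replicate, so that p-values measure the spread between flies.

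Md-tra, the transformer gene of the house fly, is the switch of its sex determination. Its active product directs female splicing of doublesex and fruitless, which set female or male development of the body and the nervous system, and the male determiner keeps that product from being made. Sex-biased genes are the far end of this cascade. In RNA from whole heads or abdomens, fewer cells of a type and less RNA per cell cannot be told apart.

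The files held 12080603 to 79454339 reads per head library and 2689265 to 77407229 per abdomen library. The 2689265 and 2756581 reads of N abdomens 1 and 3 made 1 read worth 7.83 and 7.77 normalized counts there, and 6 and 3 of the 100 genes had 3 reads or fewer in them. SR head 2 stood apart: the fold changes of the authors' deposited table for N against SR heads were matched by SR heads 1 and 3 without it. Median absolute log2 differences from that table were 0.0042 without SR head 2 and 0.139 with it, over 6243 genes with every value above 200. The main counts, positions and calls that rest on the SR heads are therefore also given without it. Where no such value is given, all 3 SR heads were used. The knockdown could not be checked at its target, since Md-tra is not analysed here. The oocyte gene bcd had 0, 5.07 and 0 normalized counts in N abdomens and 0 in every SR abdomen, against 2969, 2225 and 3315 in GFP female abdomens and 0 in every GFP male abdomen. In heads bcd did not exceed 2.78 in any library. Abdominal counts of armadillo, also abundant in the ovary, were 1181 to 1575 in N flies and 1304 to 2046 in SR flies, against 12340 to 13900 in the GFP female group and 1377 to 1561 in the GFP male group. The yolk protein gene yp3 had 657, 222 and 162 normalized counts in N heads and 1657, 45604 and 3424 in SR heads, against 192977, 2141 and 28506 in GFP female heads and 1207, 599 and 301 in GFP male heads. In abdomens yp3 had 669 to 3173 in N flies and 6253 to 24021 in SR flies, against 21.1 to 15574 in the GFP female group and 273 to 1975 in the GFP male group. The gene para-like, named for a neuronal sodium channel, had 11369 to 16997 in N heads and 3878 to 16272 in SR heads, against 2233 to 4855 in GFP female heads and 12130 to 19754 in GFP male heads. Its abdominal counts were 4522 to 10663 in N flies and 12164 to 16336 in SR flies, against 24.7 to 446 in the GFP female group and 7031 to 12337 in the GFP male group. Every GFP female abdomen was thus below all others, so that para-like cannot be read here as a count of neurons alone. The part of these cell types in the levels below was not tested.

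The gene ranked first was LOC101900378 on Muller element A, with a score of 4.05. It had 359, 425 and 112 normalized counts in N heads and 262, 433 and 148 in SR heads, against 685, 2488 and 1405 in GFP female heads and 89.6, 69.3 and 114 in GFP male heads. The N and SR heads thus lay below every GFP female head, and 1 N head fell within the GFP male range. Its abdominal counts were 0, 1.69 and 0 in N flies and 0, 1.81 and 0 in SR flies, against 27459.7, 3572 and 161 in the GFP female group and 0, 12.1 and 0 in the GFP male group. Every N and SR abdomen was at or under its own floor of 3 reads, while the GFP females had high counts that differed widely between flies.

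LOC101888035 on element C, ranked 2, had 647, 1188 and 1672 normalized counts in N heads and 85.5, 2583 and 2064 in SR heads, against 3386, 3482 and 2847 in GFP female heads and 661, 854 and 787 in GFP male heads. SR head 1 was the lowest of all 12 heads and SR head 2 the highest outside the GFP females. In its abdomens the counts were 1214, 883 and 1912 in N flies and 2143, 2764 and 4089.8 in SR flies, against 16212, 15297 and 17949 in GFP females and 895, 441 and 812 in the GFP males. N and SR abdomens did not overlap each other or the GFP females.

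LOC109613774, which has no assigned element and ranked 5, had 152, 239 and 132 normalized counts in N heads and 307, 84.4 and 251 in SR heads, against 351, 320.2 and 300.0 in GFP female heads and 64.8, 114 and 97.8 in GFP male heads. All N heads exceeded the GFP males, whereas SR head 2 lay inside their range. LOC101896041 on element B, ranked 6, had 1139, 2586 and 1847 in N heads and 1935, 1345 and 1593 in SR heads, against 2066, 4182 and 1372 in GFP female heads and 794, 651 and 820.5 in GFP male heads. Here all 6 N and SR heads exceeded every GFP male. LOC109613288 on element D, ranked 7, had 792, 743 and 541 in N heads and 789, 924 and 733 in SR heads, against 729, 1237 and 1322 in GFP female heads and 360.1, 305 and 378 in GFP male heads, again with all 6 above the males. LOC101897912 on element E, ranked 9, had 324, 461 and 337 in N heads and 231, 589.9 and 389 in SR heads, against 338, 962 and 566 in GFP female heads and 207, 159 and 243 in GFP male heads. Its SR head 1 fell within the GFP male range.

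The differences that chose the genes were larger in the abdomen for most of them. Over the 100 genes the GFP female minus GFP male difference on the log2(mean + 1) scale ran between 0.99 and 4.17 in the head, with a median of 1.17, and between 0.98 and 11.02 in the abdomen, with a median of 1.77. The head difference was the smaller one, and so the score, for 87 genes. LOC101900958 on element E, the last gene taken, had differences of 1.32 in the head and 0.98 in the abdomen. The first gene left out, LOC101899035, had 0.98 in the head and 1.09 in the abdomen, so that both scores round to 0.98. Among all kept genes, no overlap with the GFP females higher was seen for 23.5% in the head and 37.1% in the abdomen.

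The most abundant of the genes in GFP female heads was LOC101901167, which has no assigned element. It had 13363, 13162 and 9440.2 normalized counts in N heads and 7448, 11512 and 9457 in SR heads, against 9764, 20142 and 11864 in GFP female heads and 6763, 5113 and 5798 in GFP male heads. All 6 N and SR heads lay above the GFP males, and N and SR overlapped. LOC101895576 on element D had 5941, 4811 and 5356 in N heads and 4189, 7214 and 6641 in SR heads, against 6926, 12792 and 6711 in GFP female heads and 5211, 3542 and 3648 in GFP male heads, so that N and SR reached into the male range. LOC101893230 and LOC101893460, both on element E, had GFP female head means of 5330.0 ± 2458 and 3875 ± 1169 normalized counts, against GFP male means of 2510.3 ± 135 and 1828 ± 237 (SD, n = 3 each).

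Genes with a symbol were outside the rule, and 5 of 97 met its thresholds. They were the chaperonin subunit gene CCT-zeta, the serpin gene SPN15, THY, Sgf11 and the Sex-lethal homolog Sxl. Their scores were 0.76, 0.73, 0.67, 0.48 and 0.40, all below that of the last gene taken.

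Individual GFP female heads differed in step across the genes. GFP female head 2 was the highest of the 3 for 79 of the 100 genes, and GFP female head 1 was the lowest for 76. The rule used these heads, and the order was not counted over all kept genes. The median coefficient of variation was 34.3% over the genes in GFP female heads and 10.8% in GFP male heads, against 33.4% and 15.7% over all kept genes. GFP female head 1 was also the library made from 1.2 µg of RNA in place of 1.5 µg and the one with the highest yp3 count, and GFP female head 2 the one with the lowest yp3 count among the 3. The part of either in the order of the libraries was not tested. Without GFP female head 2 the same rule kept 66 of the 100 genes, without GFP female heads 1 and 3 it kept 78 and 81, and leaving out any other 1 GFP library kept 85 to 97. In the abdomen the genes varied less between GFP females, with a median coefficient of variation of 13.7%.

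To place the Md-tra RNAi flies, each library's log2(value + 1) was expressed as a position, which is 0 at the GFP male mean and 1 at the GFP female mean of that gene and tissue. In heads the median position over the 100 genes was 0.73, 0.75 and 0.46 in the N libraries and 0.49, 0.83 and 0.69 in the SR libraries. The library medians averaged 0.646 ± 0.164 in N heads and 0.667 ± 0.172 in SR heads (SD, n = 3 each), a difference smaller than the spread between flies. Without SR head 2 the SR average was 0.586. The level of 1 is a mean over GFP females that differed from each other. Median normalized counts over the 100 genes were 468, 933 and 564 in GFP female heads. They were 552, 517 and 379 in N heads and 418, 571 and 498 in SR heads. GFP female head 1 was thus below N heads 1 and 2 and SR heads 2 and 3 by this median. Group mean positions above the midpoint of 0.5 were seen for 67 genes in N heads and 79 in SR heads. The SR count was 62 without SR head 2. Most of the genes were thus nearer to the GFP female mean. Of the 1023 candidates, 697 had such a mean in SR heads, or 625 without SR head 2, and N heads were not counted. N head 3 was the lowest of its group for 68 genes, and SR head 1 the lowest of its group for 59. Such counts were not made over all kept genes. Because the GFP females were chosen to be high and the GFP males to be low, these positions describe the levels and test nothing.

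**Figure D1:**
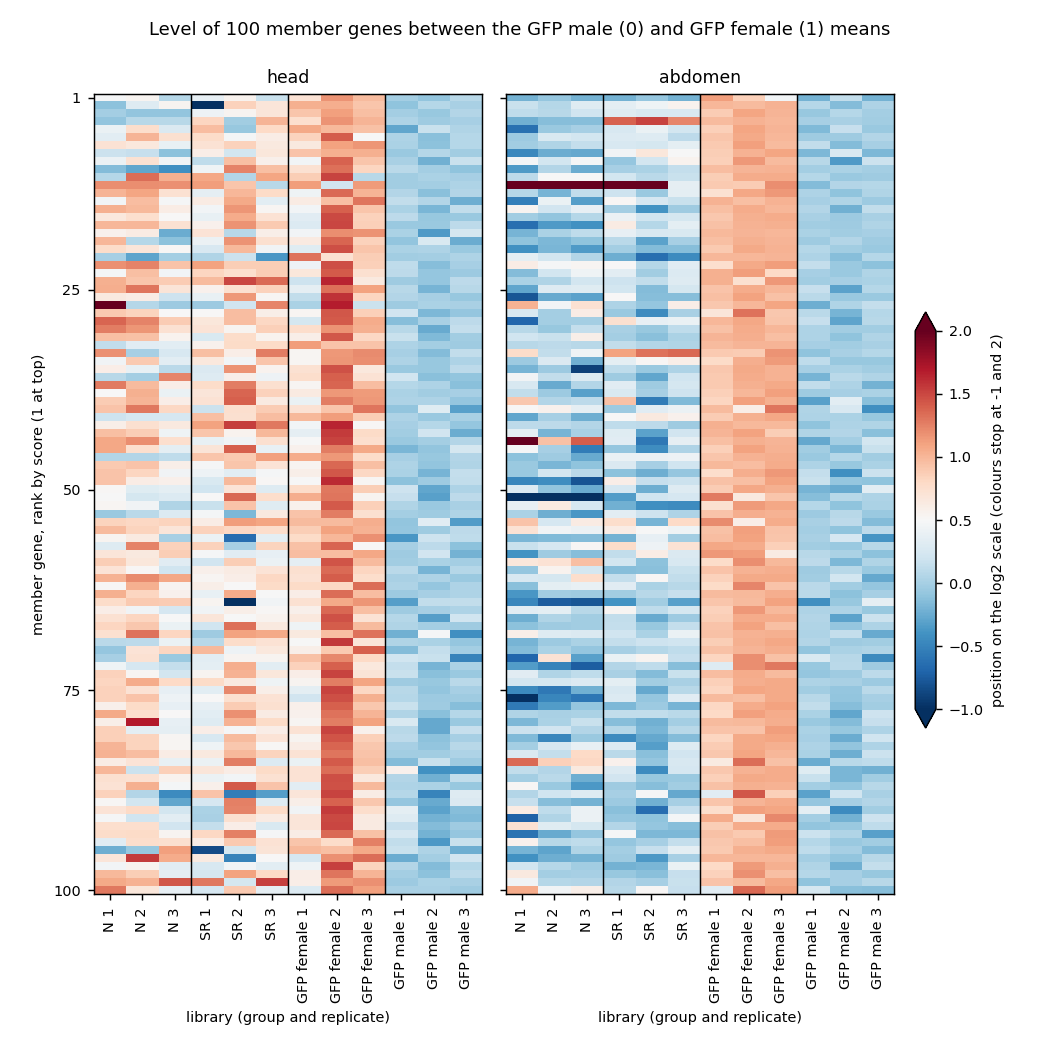
Position of each of the 100 genes (rows, ordered by score with rank 1 at the top) in each library (columns, by group and replicate), for the head on the left and the abdomen on the right. Blue marks the GFP male mean at 0, red the GFP female mean at 1 and above. The N and SR columns are mostly pale to red in the head and mostly blue in the abdomen, and GFP female head 2 is the reddest column of its group.

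In the head every N library lay above every GFP male library for 74 of the 100 genes, against 22.5% of all kept genes, and every SR library did so for 80, against 17.4%. Without SR head 2, the SR count was 88, against 23.9% of all kept genes. All 6 N and SR heads exceeded all GFP male heads for 66 genes, against 12.5% of all kept genes, or for 70 without SR head 2, against 15.4%. Every N head lay above every GFP female head for 1 gene, against 8.87% of all kept genes, and every SR head for 0, against 8.39%. N heads lay wholly below GFP female heads for 26 genes, against 8.51% of all genes, and SR heads for 18, against 7.71%, or for 29 without SR head 2, against 15.8%. The GFP libraries chose the genes, so nothing is read from these shares beyond the counts.

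In the abdomen the same genes lay close to the GFP male level. The median position was 0.0373, 0.0532 and 0.0623 in the N libraries and 0.145, -0.0191 and 0.164 in the SR libraries. The library medians averaged 0.0509 ± 0.0127 in N abdomens and 0.0968 ± 0.101 in SR abdomens (SD, n = 3 each). The SR average was 0.155 without SR abdomen 2 and 0.0630 without SR abdomen 3, and the N average was 0.0256 after TMM rescaling. Rescaling by TMM factors moved the median GFP female minus GFP male difference of all abdomen genes to -0.07, against -0.61 as deposited, and that of the 100 genes to 2.33, against 1.78. Group means above the midpoint were seen for 9 genes in N abdomens and 8 in SR abdomens, and 43 and 24 genes had a mean position below 0. Every N abdomen lay below every GFP female abdomen for 92 genes, against 35.6% of all kept genes, and every SR abdomen for 93, against 35.5%. Every N abdomen lay above every GFP male abdomen for 28 genes, against 17.7%, and every SR abdomen for 25, against 8.06%. Every N abdomen lay below every GFP male abdomen for 14 genes, against 15.5%, and every SR abdomen for 2, against 7.33%. Every N abdomen exceeded every GFP female abdomen for 1 gene, LOC101897922, against 42.2% of all kept genes, and every SR abdomen did so for 1, LOC101899147, against 46.6%.

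**Figure D2:**
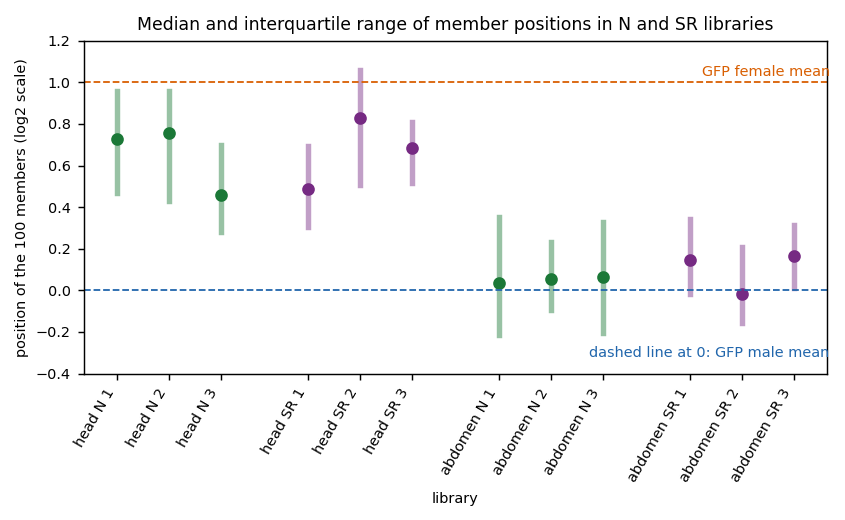
Median position (points) and interquartile range (bars) of the 100 genes in each N library (green) and SR library (purple), heads on the left and abdomens on the right, with dashed lines at the GFP female mean of 1 and the GFP male mean of 0. Head medians run between 0.46 and 0.83, and abdomen medians between -0.0191 and 0.164.

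All 6 N and SR abdomens lay below every GFP female abdomen for 89 of the 100 genes, against 31.3% of all kept genes. For 59 genes this held together with all 6 N and SR heads above every GFP male head, against 4.87% of the 11178 genes kept in both tissues, or for 63 without SR head 2, against 5.98%. These were 59 of the 66 genes with the head pattern, a share close to 89 of all 100. The 1023 candidates had medians of 0.78, 0.77 and 0.54 in N heads and 0.48, 0.87 and 0.68 in SR heads. In abdomens their medians were -0.0446, 0.00751 and 0.00716 in the N libraries and 0.0970, -0.0333 and 0.0842 in the SR libraries, each below that of the 100 genes. Whether position differs between tissues, which were scaled separately, was not tested.

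LOC101899525 and LOC101901245, both on element A, had the highest mean SR head positions, 1.28 and 1.31, with SR head 2 included. In SR heads 1 and 3, LOC101887525 lay above both, with positions of 1.30 and 1.53, but it was at 0.239 in SR head 2. LOC101899525 had 1084, 977 and 945 normalized counts in N heads and 1027, 1665 and 1438 in SR heads, against 501, 1890.3 and 759 in GFP female heads and 410.1, 391 and 463 in GFP male heads. Its abdominal counts were 384, 400.2 and 529 in N flies and 502, 452 and 598 in SR flies, against 1845, 1173 and 2224 in GFP females and 359, 372 and 385 in the GFP males. In the head N and SR sat inside the GFP female range, and in the abdomen all 6 lay below every GFP female and all but 1 N abdomen above every GFP male. LOC101887525 on element C, with an N head position of 1.18, had 243, 237 and 313 in N heads and 285, 138 and 333 in SR heads, against 177, 256 and 264 in GFP female heads and 113, 119 and 118 in GFP male heads. In the abdomen it had 157, 48.97 and 46.6 in N flies and 47.1, 38.6 and 64.9 in SR flies, against 699, 811 and 1143 in GFP females and 27.3, 38.6 and 49.95 in the GFP males. There the GFP females stood far above all other flies.

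For 12 genes all 6 N and SR heads lay below every GFP female head, against 3.05% of all kept genes, or for 18 without SR head 2, against 5.21%. For all 12, and all 18, the N and SR abdomens were also below every GFP female abdomen, which held for 89 of the 100 genes. Both together were seen for 0.716% of the genes kept in both tissues, or 1.34% without SR head 2. Besides LOC101900378, LOC101888035 and LOC101890423 these include LOC101887596 on element A, whose head positions were the second lowest in both groups at -0.10 for N and -0.05 for SR. LOC101887596 had 526, 395 and 521 normalized counts in N heads and 549.7, 617 and 365 in SR heads, against 1813, 1046 and 1196 in GFP female heads and 511, 519 and 541 in GFP male heads. The N and SR heads straddled the GFP males. The lowest SR head position, -0.34, was that of LOC109613889 on element C, and it rested on SR head 2 with 35.0 normalized counts beside 274 and 253 in the other SR heads.

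In the abdomen 8 genes had all 6 N and SR libraries above every GFP male, against 1.32% of all kept genes. In both tissues 5 genes had this, against 0.483%, or 6 without SR head 2, against 0.599%. LOC101893860, with no assigned element, was 1 of them. It had 1391, 1246 and 1109 normalized counts in N heads and 1261, 1228 and 1183 in SR heads, against 1280.4, 1541 and 1450.2 in GFP female heads and 605, 629.5 and 704 in GFP male heads. Its abdominal counts were 1324, 1037 and 1003 in N flies and 1198, 1080.0 and 1027 in SR flies, against 1629, 1917 and 1617 in GFP females and 676, 618 and 757 in the GFP males. N and SR overlapped in both tissues and stood between the GFP groups in the abdomen.

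LOC101897922 on element E, ranked 12, had abdominal positions of 2.86 in N flies and 1.74 in SR flies, the highest of the genes in both groups. It had 1355, 1072 and 1578 normalized counts in N abdomens and 939, 753 and 98.97 in SR abdomens, against 171, 169 and 233 in GFP female abdomens and 57.4, 71.5 and 72.5 in GFP male abdomens. Every N abdomen exceeded every GFP female, and 1 SR abdomen lay below them. In heads it had 4457, 4363 and 4291 in N flies and 3625, 1948 and 176 in SR flies, against 3569.7, 257 and 3693 in GFP females and 129, 134 and 154 in the GFP males. SR library 3 was low in each tissue, and 1 GFP female head was low as well. N and SR did not overlap in either tissue, but the N minus SR difference missed the threshold, with 2.02 ± 1.14 in heads and 1.67 ± 0.67 in abdomens (SE; limma adjusted p = 0.675 and 0.117).

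N and SR flies took no part in the choice of the genes, so the difference between them could be tested. Levels were compared with limma on log2(normalized count + 1) over all 12 libraries of a tissue, with Benjamini-Hochberg adjustment over all kept genes at 0.05. In heads the 100 genes had a median N minus SR log2 difference of -0.01, against -0.02 over all 12237 genes, with 49 higher in N and 51 lower. By limma 3 of the 100 genes were called, all lower in N, against 0.302% of all genes called, 0.245% called higher and 0.0572% called lower. At an unadjusted p under 0.05 there were 9, against 8.18% of all genes. In abdomens the median difference was -0.07, against -0.04 over all 12537 genes, and 18 of the 100 genes were called, against 14.6%. Of these, 6 were higher in N, against 8.56% of all genes, and 12 were lower, against 6.05%. At an unadjusted p under 0.05 there were 37, against 31.8%. Rescaled by TMM factors, 3 were higher and 14 lower, 17 in all against 14.5% of all genes. N and SR did not overlap in heads for 7 genes with N above, against 6.83% of all genes, and 7 with N below, against 6.42%. Without SR head 2 these counts were 15, against 13.4%, and 10, against 12.8%. In abdomens the counts were 10 with N above, against 17.6%, and 26 with N below, against 15.5%. The spread in these fits is shared with the GFP libraries, whose spread the choice of genes bounds. With the N and SR libraries alone, limma called 0 of the 100 genes in the head, against 0.0163% of all genes, and 3 in the abdomen, all lower in N, against 1.15%. At an unadjusted p under 0.05 that fit had 9 and 22 of them, and its share over all genes was not computed. On the recovered reads, edgeR called 2 in the head, against 0.172%, and 12 in the abdomen, against 8.55%. DESeq2 called 5 in the head, against 1.66%, and 25 in the abdomen, against 23%.

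LOC101896416 on element A was called in both tissues. It had 950.1, 949 and 1002 normalized counts in N heads and 1922, 1879 and 2240.4 in SR heads, against 2135, 2305 and 1705 in GFP female heads and 905, 861 and 957 in GFP male heads. N heads lay next to the GFP males and SR heads within the GFP female range, with no overlap between N and SR. The N minus SR difference in heads was -1.05 ± 0.15 (SE; limma, Benjamini-Hochberg adjusted p = 0.0152). In abdomens it had 439, 520.1 and 326 in N flies and 1334, 1363 and 1404 in SR flies, against 4095, 5148 and 5393 in GFP females and 505, 654 and 538 in the GFP males. SR abdomens stood apart from all other groups, between the GFP sexes, with an N minus SR difference of -1.70 ± 0.20 (SE; limma adjusted p = 0.00284).

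LOC101889770 on element C was the other gene called in both tissues. It had 1408, 1468 and 1477 normalized counts in N heads and 2637, 2217 and 2661 in SR heads, against 2699, 3039 and 2461 in GFP female heads and 1236, 1151 and 1219 in GFP male heads. N and SR heads did not overlap, and N heads lay just above the GFP males. Its difference was -0.78 ± 0.13 in heads (SE; limma adjusted p = 0.0419) and -1.18 ± 0.17 in abdomens (limma adjusted p = 0.00422). Its abdominal counts were 556, 767 and 591 in N flies and 1317, 1563 and 1418 in SR flies, against 1999.9, 2388 and 2499.9 in GFP females and 795, 779 and 707 in the GFP males. SR abdomens again stood between the GFP sexes.

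LOC101890423 on element A, ranked 3, was called in heads alone. It had 205, 181 and 179 normalized counts in N heads and 377, 446 and 551 in SR heads, against 764, 1025 and 808 in GFP female heads and 204, 188 and 226 in GFP male heads. The N heads lay among or below the GFP males and the SR heads between the sexes, and the difference was -1.26 ± 0.20 (SE; limma adjusted p = 0.0370). In abdomens it had 86.2, 81.0 and 101 in N flies and 125, 115 and 114 in SR flies, against 353, 524 and 453 in GFP females and 60.3, 78.0 and 67.6 in the GFP males. There the N minus SR difference was -0.40 ± 0.27 and missed the threshold (limma adjusted p = 0.337).

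LOC101899147 on element A, ranked 4, had the smallest adjusted p in abdomens. It had 204, 233 and 233 normalized counts in N abdomens and 2916, 3592 and 2259 in SR abdomens, against 1487, 1599.8 and 1552 in GFP female abdomens and 298, 303 and 284 in GFP male abdomens. All N abdomens lay below the GFP males and all SR abdomens above the GFP females. SR abdomens averaged 13.1-fold the N level, and the difference was -3.68 ± 0.18 (SE; limma adjusted p = 9.18e-06). In heads it had 723, 909 and 909 in N flies and 2423, 793 and 3099.5 in SR flies, against 2211, 3855 and 3103 in GFP females and 847, 779.8 and 809.6 in the GFP males. SR head 2 was at the male level and the other SR heads within the GFP female range, and the head difference of -1.10 ± 0.42 missed the threshold (limma adjusted p = 0.563). Without SR head 2 the head difference was -1.70 ± 0.23 (limma adjusted p = 0.0229). The head calls without that library were LOC101899147, LOC101889770 and LOC101896416, and LOC101890423 was no longer called.

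**Figure D3:**
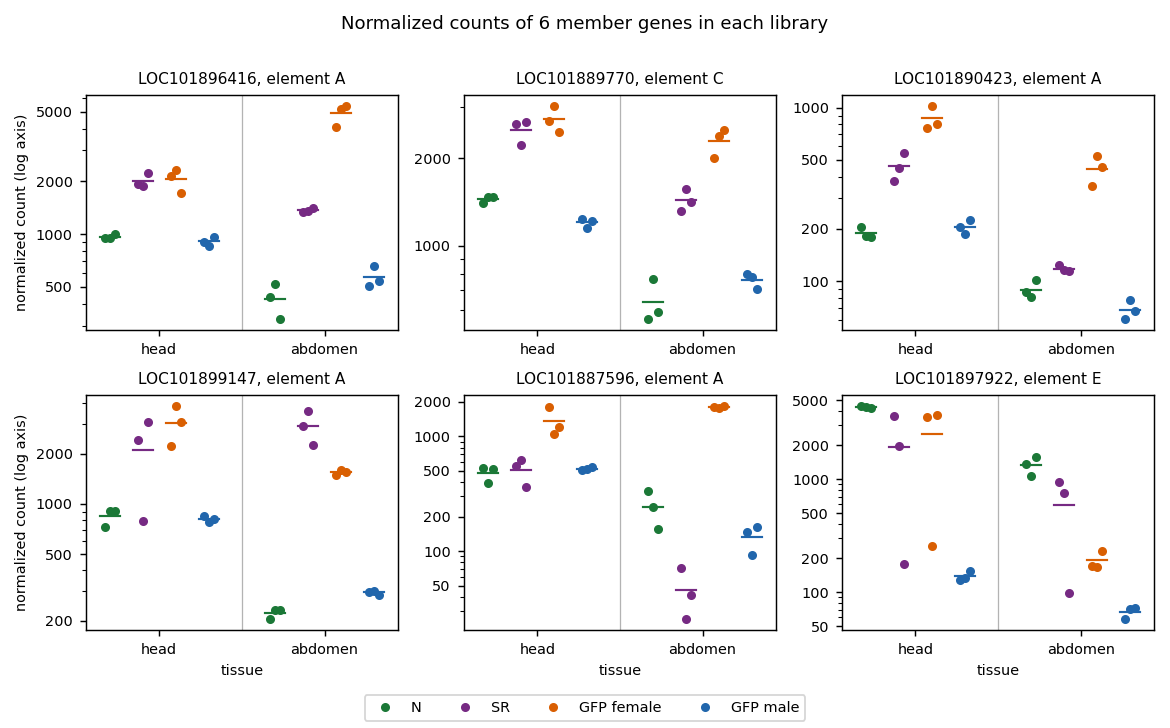
Normalized counts (log axis) of 6 of the genes in every library, with heads left and abdomens right of the grey line in each panel. Points are single flies and bars are group means, in the order N, SR, GFP female and GFP male. LOC101896416, LOC101889770 and LOC101899147 have N near the GFP male level in both tissues, and LOC101899147 has SR abdomens above the GFP females.

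Among the other genes lower in N abdomens, LOC101893737 on element D is also the second most abundant of the genes in GFP female heads, with a mean of 11984 normalized counts. It had 1771, 2269 and 2207 normalized counts in N abdomens and 5023, 6415 and 5229.6 in SR abdomens, against 8064, 9614 and 10311 in GFP female abdomens and 2469.7, 4088 and 2465 in GFP male abdomens. All N abdomens lay below every GFP male, and all SR abdomens lay between the GFP groups. The difference was -1.42 ± 0.22 (SE; limma adjusted p = 0.00576), and in heads it was -0.81 ± 0.23 (limma adjusted p = 0.336). Its head counts were 4083, 3968 and 2777 in N flies and 7087, 4379 and 7825 in SR flies, against 10966, 12442 and 12544 in GFP females and 3021, 3554 and 3165 in the GFP males. LOC101893737, LOC101896416 and LOC101899147 were the genes called from the N and SR abdomens alone.

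LOC101891641 on element C and LOC101888166 on element D had N abdomens below both GFP groups. LOC101891641 had 251, 343 and 319 normalized counts in N abdomens and 994, 545 and 743 in SR abdomens, against 1410.1, 1555 and 1574 in GFP female abdomens and 492, 487 and 529 in GFP male abdomens. LOC101888166 had 407, 422 and 303 in N abdomens and 1111, 730.4 and 744 in SR abdomens, against 1522, 1529 and 1771 in GFP female abdomens and 738, 590.1 and 574 in GFP male abdomens. Their differences were -1.29 ± 0.22 and -1.18 ± 0.21 (SE; limma adjusted p = 0.00917 and 0.0111). In heads N and SR overlapped for both genes.

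LOC101900783 on element A and LOC101900843 on element E both had an abdominal difference of -2.04 ± 0.42 (SE; limma adjusted p = 0.0153 and 0.0148). LOC101900783 had 31.3, 82.7 and 124 normalized counts in N abdomens and 400.0, 235 and 250.1 in SR abdomens, against 5733, 6468 and 6138 in GFP female abdomens and 81.8, 66.7 and 75.4 in GFP male abdomens. Its 31.3 in N abdomen 1 was close to the floor of 3 reads there, 23.5. LOC101900843 had 196, 62.5 and 109 in N abdomens and 347, 497 and 544 in SR abdomens, against 238, 237 and 394 in GFP female abdomens and 41.6, 51.4 and 56.8 in GFP male abdomens. The SR abdomens of LOC101900843 thus reached or passed the GFP female level, and those of LOC101900783 stayed far below it. For LOC101895415 on element E, N abdomens had 0 reads and SR abdomens had 6.10, 15.7 and 17.0 normalized counts. Since 3 reads were worth 23.5 and 23.3 normalized counts in N abdomens 1 and 3, a level like that of the SR flies was not detectable in them, and no fold is given although the gene was called (limma adjusted p = 0.00546). The remaining genes called lower, LOC101891913, LOC101888035 and LOC101893230, had adjusted p of 0.0386, 0.0439 and 0.0473 by limma.

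Of the 6 genes higher in N abdomens, LOC101887596 on element A had the largest difference. It had 337, 241 and 155 normalized counts in N abdomens and 71.5, 25.4 and 41.5 in SR abdomens, against 1806, 1774 and 1848 in GFP female abdomens and 146, 92.4 and 161 in GFP male abdomens. The SR abdomens were below every GFP male abdomen, and the N minus SR difference was 2.43 ± 0.41 (SE; limma adjusted p = 0.00819). In heads its N and SR counts, given above, overlapped.

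LOC101891794 on element D had 1818, 736 and 1080.3 normalized counts in N abdomens and 448, 212 and 462 in SR abdomens, against 747, 796 and 782 in GFP female abdomens and 274, 338 and 411 in GFP male abdomens. N abdomens lay around or above the GFP females and SR abdomens around the GFP males, with a difference of 1.68 ± 0.37 (SE; limma adjusted p = 0.0175). LOC105261941 on element A had 196, 257 and 171 in N abdomens and 104, 83.3 and 81.9 in SR abdomens, against 288, 437 and 409 in GFP female abdomens and 141, 117 and 134 in GFP male abdomens. Its N abdomens stood between the GFP groups and its SR abdomens below them, with a difference of 1.19 ± 0.27 (SE; limma adjusted p = 0.0207). LOC101890443, LOC101894777 and LOC101889348 were higher by 0.76, 0.87 and 1.00, with limma adjusted p of 0.0428, 0.0439 and 0.0455.

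N abdomens 1 and 3 had a median of 32 and 30.5 reads per gene over the 100 genes, against 261.5 to 356.5 in SR abdomens. Of the 18 abdominal calls, 9 held when any 1 of the 12 libraries was left out, namely LOC101887596 and 8 genes lower in N. Among these 8 was LOC101895415, whose level in SR abdomens was not detectable in N abdomens 1 and 3. LOC101891794, LOC101900843 and LOC105261941 were lost only without SR abdomen 2, and the other 6 in several such fits. In the head LOC101896416 held in 7 of the 12 fits and was lost without N head 1, 2 or 3, SR head 1 or SR head 3. LOC101889770 and LOC101890423 each held in 2 of the 12.

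**Figure D4:**
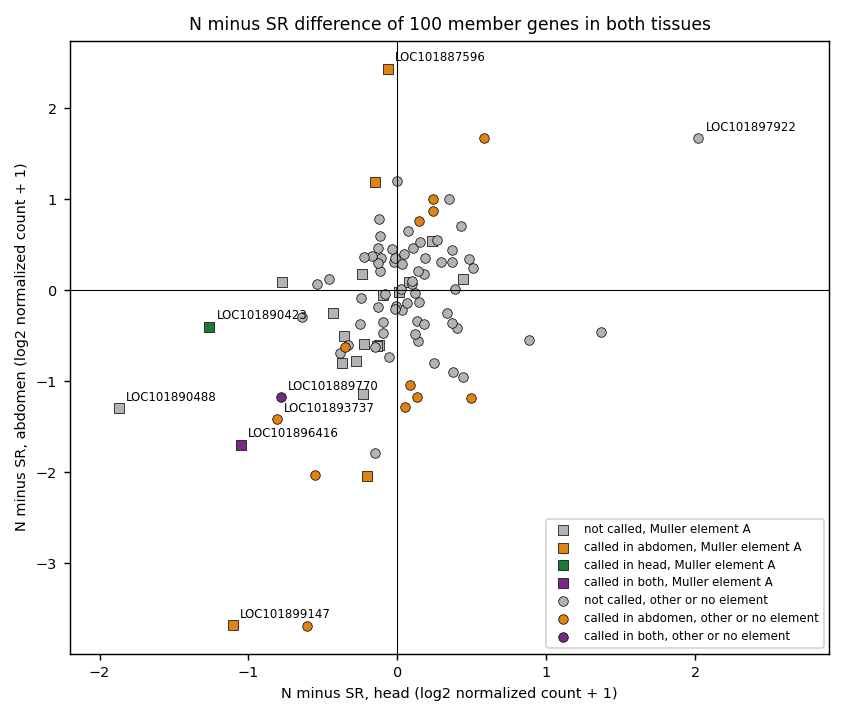
N minus SR difference in log2(normalized count + 1) of each of the 100 genes in the head (x axis) and the abdomen (y axis). Squares are genes on Muller element A, circles other genes, and colours give the tissue in which limma called the difference. LOC101899147, LOC101896416, LOC101889770 and LOC101893737 lie at the lower left, and LOC101887596 at the top with a head difference of -0.07.

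The genes were spread over the large Muller elements. Element A held 22, B 11, C 20, D 15 and E 25 of the 100 genes, F held none, and 7 had no assigned element. Among the 9234 LOC genes that reached the minimum in both sexes, element A held 15.7%, B 14.9%, C 18.5%, D 16.3% and E 21.9%, and no difference in these shares was tested. Median N minus SR differences in heads were -0.23 on element A, which carries the male determiner in this strain, 0.12 on B, 0.01 on C, 0.10 on D and -0.02 on E. In abdomens they were -0.45 on A, -0.35 on B, -0.09 on C, 0.24 on D and 0.10 on E. In heads 2 genes on A and 1 on C were called. In abdomens the calls higher and lower in N were 2 and 3 on A, 1 and 1 on B, 1 and 3 on C, 1 and 2 on D, and 1 and 3 on E. These medians and counts were not computed for all genes of an element, and no difference between elements was tested. Nothing is therefore read from them about element A. LOC101890488 on element A, ranked 10, had the lowest N head position of the genes, -0.28. It had 64.8, 55.4 and 47.2 normalized counts in N heads and 124, 310.2 and 223 in SR heads, against 173, 339 and 193 in GFP female heads and 85.0, 75.9 and 68.3 in GFP male heads. N heads lay below every GFP male and SR heads above, with a difference of -1.87 ± 0.38 (SE; limma adjusted p = 0.102).

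The genes where every N library was on the male side of the midpoint and every SR library on the female side were LOC101887771, LOC101889770 and LOC101896416 in heads and LOC101899147 in abdomens. The reverse held for LOC101889070 in heads and for LOC101891794 and LOC101890443 in abdomens. Among the 1023 candidates these shares were 1.86% and 0.587% in heads and 0.880% and 2.83% in abdomens, so that counts of 3 and 1, and of 1 and 2, of 100 genes do not stand apart. Without SR head 2 the head counts were 5 and 3, against 3.03% and 2.35% of the candidates. LOC101887771 on element E had 620.1, 733 and 739 normalized counts in N heads and 897, 1076 and 1078 in SR heads, against 1451, 1219 and 1218 in GFP female heads and 569, 550.2 and 539.5 in GFP male heads. The 4 groups did not overlap in heads, although the N minus SR difference of -0.54 ± 0.15 missed the threshold (limma adjusted p = 0.318). In abdomens it had 353, 398 and 358 in N flies and 427, 331 and 309 in SR flies, against 10277, 12129 and 11915 in the GFP female group and 264, 236 and 278 in the GFP male group. N and SR abdomens overlapped and lay above every GFP male.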

How the data were processed

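RNA of 24 libraries, 3 per group and tissue, was sequenced from poly(A) RNA with a stranded kit, per the labels' protocols. Tools listed in the submitters' processing notes are HTSeq 0.9.1, DESeq2 1.16.1, CASAVA 1.8 and HISAT2, with no step assigned, while a genome build was not given in the sources used here. Values are a signal deposited by the authors, per the file headers normalized counts, equal to read counts divided by 1 size factor per library. Division by the worth of 1 read returned whole numbers, within 0.001, for 100% of nonzero values. Depth and floors of 3 reads are thus known and cover counting error only. For 4 comparisons per tissue the authors deposited a log2 fold change and an adjusted p-value, per the file headers, used only where their table is named.

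Genes were kept at 10 or more in at least 3 of 12 libraries of a tissue, which left 12237 in the head and 12537 in the abdomen. N minus SR was fitted with limma 3.58.1 in R 4.3.3 (trended prior, no block) on log2(value + 1), with Benjamini-Hochberg adjustment at 0.05 and edgeR 4.0.16 and DESeq2 1.42.0 on recovered reads as alternatives. The design named edgeR in case of raw counts, and limma was used because the unit is normalized. Fold changes understate low genes. The members and lists were chosen with earlier results of these data known. Named genes are the 10 highest scores, both sides of the limit, up to 8 calls per tissue and direction, the highest and lowest 2 positions and the 5 highest GFP female head means. Only 89 of the 100 identifiers matched the RefSeq gene table, which gives symbols alone, so gene function, neighbours and proteins are not described.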

Additional observations from a re-analysis of the deposited data

Results flagged for a closer look

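LOC101889070 on Muller element D had opposite orders of N and SR in the 2 tissues, with no overlap in either. It had 412, 400.3 and 478 normalized counts in N heads and 353, 315 and 326 in SR heads, a difference of 0.37 in log2(value + 1), or 0.34 without SR head 2. In abdomens it had 196, 301 and 264 in N flies and 365, 642 and 436 in SR flies, a difference of -0.90. LOC109613889 on element C likewise had 328, 363 and 360.2 in N heads and 274, 35.0 and 253 in SR heads, a difference of 1.37, or 0.41 without SR head 2. In abdomens it had 196, 159 and 155 in N flies and 208, 276 and 221 in SR flies, a difference of -0.46. Neither gene was called in either tissue, and the difference between tissues was not tested.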

How the results depend on the processing

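The head count of 3 genes called for N minus SR stood against 0.302% of all genes. It was 0 when N and SR were fitted alone, 0 under the replicate block and 0 with a block by library code number. Over all genes these fits called 0.0163%, 0.172% and 0.00817%. In them 9, 9 and 7 of the 100 genes had an unadjusted p under 0.05, a share not computed over all genes. DESeq2 called 5, against 1.66%. Leaving out 1 library gave 0 to 3, against 0.0823% to 0.344% of all genes. The abdomen count of 18, against 14.6% of all genes, was 3 when N and SR were fitted alone, against 1.15%. It was 6 with the block by code number, against 1.48%, and 17 with the replicate block, against 14.3%. Leaving out 1 library gave 9 to 19, against 4.09% to 16.7% of all genes. The 9 were seen without SR abdomen 2, against 4.09%. Samples with the same replicate number in N and SR had correlations of deviations of 0.0617, 0.0690 and 0.247 in heads and -0.00301, 0.210 and 0.187 in abdomens. Pairs with unlike replicate numbers had -0.139 to 0.0477 in heads and -0.254 to 0.0869 in abdomens. N 1 with SR 2 and N 2 with SR 3 share a code number. These pairs had 0.0477 and -0.117 in heads and -0.0395 and -0.254 in abdomens. Deviations within a group cancel out, so these correlations are not independent. Whether samples of the same replicate or code number share a batch was not tested. The replicate block on the head count removed all 3 calls. The mean N abdomen position was 0.0256 after TMM rescaling, against 0.0509 as deposited. Other settings (a pseudocount of 10, no filter, TMM rescaling of the counts, edgeR, a minimum mean of 100, a score from log2(mean + 10), and, chosen after seeing the data, a list made without GFP female head 2) gave 2 to 3 calls in the head and 12 to 20 in the abdomen. Over all genes these settings called 0.172% to 0.302% in the head and 8.55% to 17.6% in the abdomen. None of the 21 calls changed sign in any of these fits. The causes of these shifts were not tested. With 2689265 and 2756581 reads, N abdomens 1 and 3 limit what can be seen of genes under about 23.5 normalized counts.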

Other observations

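LOC101896041, LOC101891447 and LOC101895609, all on Muller element B, varied in a similar order between flies of a group in the head. They were picked after their values were seen. LOC101891447 had 747, 3019 and 2149 normalized counts in N heads and 2257, 744 and 2306 in SR heads, against 1804, 3657 and 763 in GFP female heads and 676, 708 and 694 in GFP male heads. LOC101895609 had 1239, 3326 and 2187 in N heads and 2177, 895 and 2165.6 in SR heads, against 2403, 3781 and 1519 in GFP female heads and 893, 998 and 798 in GFP male heads. In all 3 genes N head 1, SR head 2 and GFP female head 3 were the lowest of their groups, and N head 2 and GFP female head 2 the highest.

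LOC101888929 on element E was high in single heads of each group but the GFP males. It had 3957, 322 and 275 normalized counts in N heads and 275, 379 and 1390.2 in SR heads, against 301, 2436 and 364 in GFP female heads and 279, 299 and 298 in GFP male heads.

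In the authors' deposited table, 6 of the 100 genes had an adjusted p under 0.05 for N against SR in heads, all lower in N, against 1.57% of 12959 genes. The fold changes of that head table were matched without SR head 2, whereas the main limma fit included it, so these counts rest on unlike sets of libraries. In abdomens the authors' deposited table had 25, with 7 higher and 18 lower in N, against 20.8% of 13769 genes.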
